A study of Mus musculus with 8 samples.

Results

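The mouse genome carries its Hox genes in 4 clusters on 4 chromosomes, and this account follows the contacts of the 500-kb bins that hold them. The bins were taken by position in mm9: chr6:52000001-52500000 for Hoxa (Hoxa13), chr11:96000001-96500000 for Hoxb (Hoxb1 and Hoxb13), chr15:102500001-103000000 for Hoxc (Hoxc4 and Hoxc13), and both chr2:74000001-74500000 and chr2:74500001-75000000 for Hoxd (Hoxd1 and Hoxd13). They are 5 of the 5322 bins of the maps and all 5 are among the 5093 bins that passed the coverage limit. With 1 flanking bin on each side the clusters form 4 windows of 13 bins in all and 6 pairs of windows on different chromosomes. The first of both chromosome 2 bins is called the Hoxd-centromeric bin below and the second the Hoxd bin. No mm9 gene annotation was at hand, so the place of single genes within a bin was not checked.

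The samples are mouse embryonic stem cells (mESCs), nucleofected with an antisense morpholino oligonucleotide (AMO) at 5 nmol per 100 µl. The L1 AMO targets RNA of the L1 retrotransposon and the SCR AMO is the scrambled control, so both groups went through nucleofection. Transfected cells were sorted at 12 h and harvested at 36 h for small-scale in situ Hi-C, with 2 samples per group that come, by the study's methods, from independent transfections. The question put to the maps was the part of L1 RNA in higher-order chromatin structure.

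Hox genes encode homeodomain transcription factors that pattern the body axis, and within a cluster their order on the chromosome follows the order of their domains of expression along that axis. In mESCs the clusters are known as Polycomb targets, rich in CpG islands and poor in transposed repeats. Hoxd is known to lie between a centromeric and a telomeric regulatory landscape, which act on opposite ends of the cluster. A bin of 500 kb takes in a whole cluster with its surroundings, so contacts inside a cluster are not resolved here.

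The oligonucleotides define the groups and are given 5′ to 3′, in lower case throughout.
L1 AMO: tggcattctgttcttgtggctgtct
SCR AMO: cctcttacctcagttacaatttata
Both are 25 bases long, with 12 and 8 G or C, and neither holds a CG dinucleotide.

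To show how CpG content differs among Hox genes, 1 promoter per cluster is given, each the 250 bases upstream of the gene's start from RefSeq (GRCm38.p6, a later build than that of the bins), 5′ to 3′ on the gene's strand and with every CG in capitals. These are Hoxa13 at chr6:52260881-52261130 on the minus strand, Hoxb1 at chr11:96365508-96365757, Hoxc4 at chr15:103034145-103034394 and Hoxd13 at chr2:74667975-74668224, the last 3 on the plus strand.
Hoxa13: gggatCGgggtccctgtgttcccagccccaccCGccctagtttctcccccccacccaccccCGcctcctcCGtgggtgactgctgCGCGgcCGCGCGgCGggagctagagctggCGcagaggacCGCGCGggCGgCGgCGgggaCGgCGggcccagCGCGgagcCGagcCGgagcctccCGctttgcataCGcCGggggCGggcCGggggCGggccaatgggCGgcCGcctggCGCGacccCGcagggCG
Hoxb1: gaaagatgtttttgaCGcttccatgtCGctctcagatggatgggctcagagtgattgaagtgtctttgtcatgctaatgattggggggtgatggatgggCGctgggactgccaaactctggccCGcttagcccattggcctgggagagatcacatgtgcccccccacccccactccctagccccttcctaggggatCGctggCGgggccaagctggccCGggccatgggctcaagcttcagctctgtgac
Hoxc4: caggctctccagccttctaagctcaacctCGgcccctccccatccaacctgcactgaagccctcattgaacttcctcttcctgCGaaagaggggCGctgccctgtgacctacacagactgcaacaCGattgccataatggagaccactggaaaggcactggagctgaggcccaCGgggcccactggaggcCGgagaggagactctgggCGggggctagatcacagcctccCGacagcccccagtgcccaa
Hoxd13: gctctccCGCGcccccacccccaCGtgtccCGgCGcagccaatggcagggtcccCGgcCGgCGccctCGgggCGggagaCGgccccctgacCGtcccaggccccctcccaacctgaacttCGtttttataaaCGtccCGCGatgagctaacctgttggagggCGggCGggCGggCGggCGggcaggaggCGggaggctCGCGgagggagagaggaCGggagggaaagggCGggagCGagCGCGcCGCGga
They hold 35, 7, 8 and 31 CG. RefSeq lists 39 protein-coding Hox genes in the clusters (11 in Hoxa, 10 in Hoxb, 9 in Hoxc and 9 in Hoxd), of which 22 had an entry in the promoter table. Their promoters held a median of 12 CG per 250 bases (range 2 to 35), against a median of 6 over all 32851 promoters of the table. Hoxa13 and Hoxd13, at the 5′ ends of their clusters, stood near the top, with 97.0% and 94.8% of all promoters below them. Hoxb1 and Hoxc4 were close to the middle (53.7% and 57.0%), and Hoxd11, with 2 CG, had 18.8% below it.

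Depth ran from 22252054 contacts (SCR AMO replicate 2) to 112381720 (SCR AMO replicate 1), and from 46263849 to 58030519 in the L1 AMO samples. The share of contacts between chromosomes was 22.3% and 22.8% in SCR AMO and 15.8% and 14.2% in L1 AMO, so all contacts between chromosomes below are given relative to the mean of their chromosomes. The Hox bins were covered at 1.10 to 1.46 times the median bin of their chromosome in SCR AMO replicate 1 and at 1.06 to 1.22 times in L1 AMO replicate 2. The relative coverage of Hoxa was 1.46 and 1.39 in SCR AMO and 1.30 and 1.22 in L1 AMO. Of all 5093 bins, 37.6% were likewise lower without overlap and 30.6% higher. Of the 2547 bins above their chromosome's median in SCR AMO, 58.7% were lower and 13.2% higher. That choice of bins by itself favours lower values in L1 AMO. The deposited contact totals of the SCR AMO samples, unlike those of L1 AMO, are not those of the valid pairs the study tabulates, so a difference in how the files were prepared and an effect of the AMO cannot be told apart. With 2 samples per group the smallest two-sided exact permutation p is 0.333, so no single value below could reach 0.05, and every such p given is this minimum or above it.

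Between chromosomes, the measured contact of all 6 pairs of Hox windows lay above the mean of their chromosomes in every sample. The values below are observed/expected (O/E): the mean balanced contact frequency of a window pair over the mean of all bin pairs of the same chromosomes. The Hoxb and Hoxc windows had the highest mean, with O/E values of 4.35 and 2.65 in SCR AMO and 5.29 and 4.15 in L1 AMO, although in SCR AMO replicate 2 Hoxa-Hoxb (3.06) and Hoxc-Hoxd (2.76) were higher. Hoxa with Hoxb reached 2.14 and 3.06 in SCR AMO and 2.80 and 1.98 in L1 AMO. Hoxa with Hoxc reached 2.09 and 2.61, then 3.07 and 2.17. The 3 pairs with Hoxd had the lowest values in L1 AMO, none of them above 1.82, whereas the values of the 3 other pairs in those samples were all at 1.98 or more. The Hoxd pairs rest there on 8 to 17 contacts. Their exact Poisson 95% intervals, which cover counting error only, reached below 1, except for Hoxa-Hoxd in L1 AMO replicate 1 (1.06 to 2.91). In those samples a level above the mean is thus not shown for them.

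A level above 1 is shared by many bins of the A compartment, the part of the genome that holds most active genes, since A bins of different chromosomes contact each other. Each window pair was therefore set beside 400 matched pairs, formed by the 20 windows on each chromosome nearest to the Hox window in the genome-wide eigenvector 1 of contacts between chromosomes. The matched level was 2.39 to 2.67 for Hoxb-Hoxc and 1.18 to 2.12 for the 5 other pairs. Hoxb-Hoxc stood at 1.69 and 1.04 times its matched level in SCR AMO and at 1.98 and 1.74 times in L1 AMO. Hoxa-Hoxc lay just below its matched level in SCR AMO replicate 1 (0.986 times), and all 3 pairs with Hoxd lay below theirs in L1 AMO replicate 2 (0.944 times for Hoxa, 0.865 for Hoxb and 0.985 for Hoxc). On the log2 scale the mean over the 6 pairs stood 0.35 and 0.60 above the matched level in SCR AMO and 0.52 and 0.19 in L1 AMO. These groups overlap, with an L1 AMO minus SCR AMO difference of -0.12.

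Over the 4 samples, the contact of Hoxb with Hoxc was highest in the Hox bins themselves. Taken alone, without flanks, both bins reached an O/E of 10.0 and 9.21 in SCR AMO and 12.3 and 14.1 in L1 AMO. These rest on 39, 7, 15 and 11 contacts, and the exact Poisson 95% intervals of the O/E, which cover counting error only, run from 7.11 to 13.7 in SCR AMO replicate 1 and from 6.89 to 20.3 in L1 AMO replicate 1. The mean over the 4 samples, 11.4, was reached by 5 of the 47838 bin pairs of chromosomes 11 and 15, itself included (0.0105%). Within 2 Mb on either side, the next highest bin pair had a mean of 7.15.

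**Figure D1:**
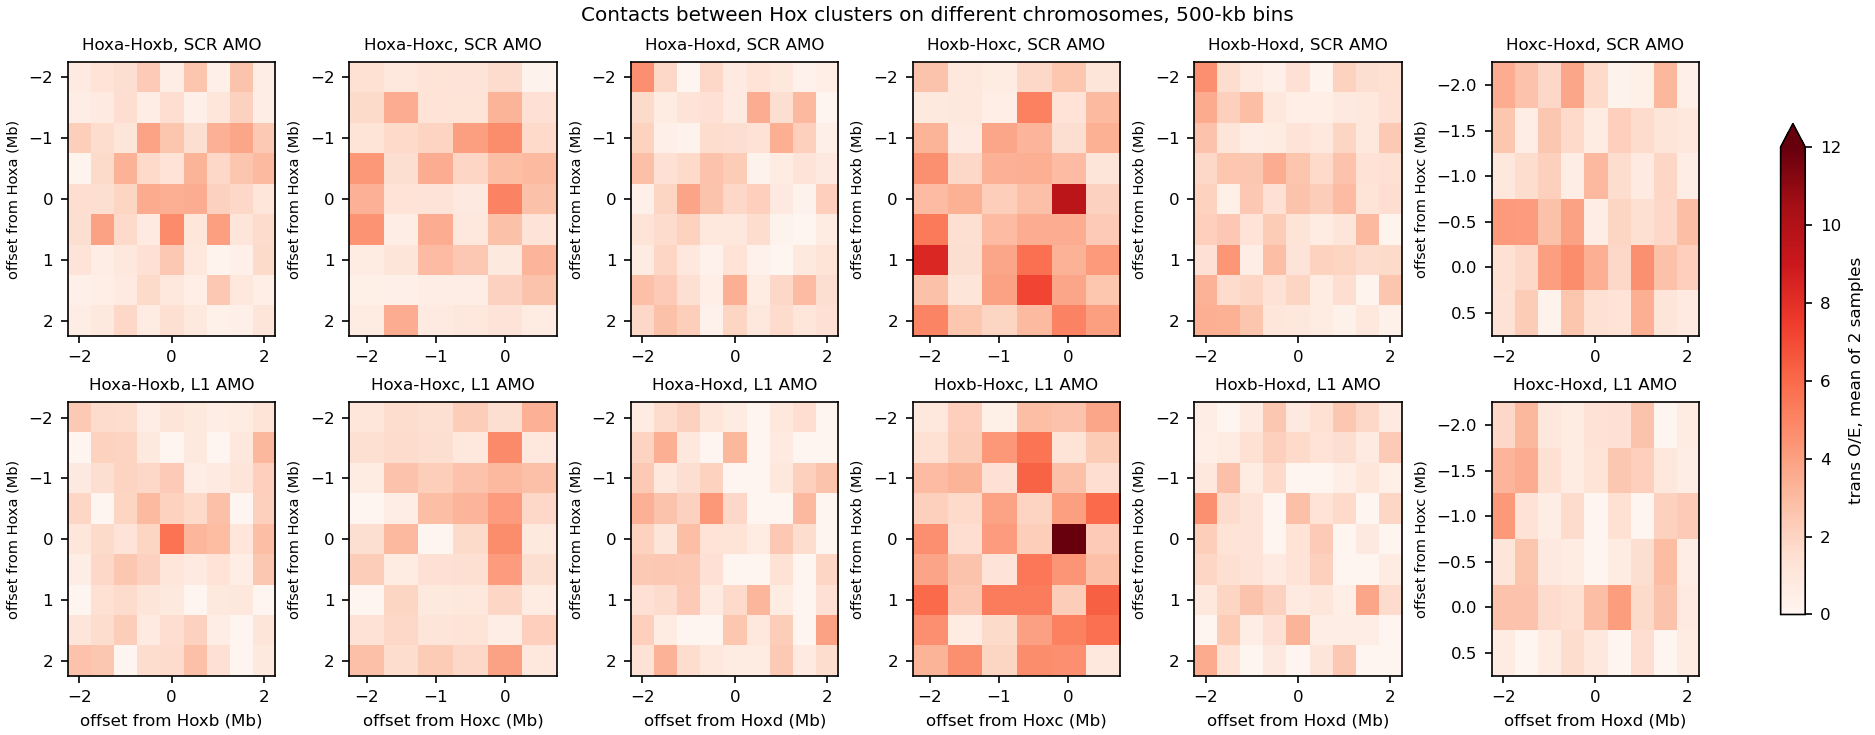
Bin-by-bin trans O/E around each pair of Hox clusters, as the mean of 2 samples (top row SCR AMO, bottom row L1 AMO), with the offset from the Hox bins in Mb on both axes and offset 0 for Hoxd at the second of its bins. The bin pair at the crossing of Hoxb and Hoxc is the darkest square of its maps (9.61 in SCR AMO and 13.2 in L1 AMO), and the Hoxc axis stops at the chromosome's last bin.

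The other Hox bins also met more often than most pairs of their chromosomes, on few counts. Hoxa with Hoxc had a mean O/E of 4.85 over the 4 samples (9, 4, 3 and 4 contacts), a level reached by 0.163% of the bin pairs of their chromosomes. Hoxa with Hoxb had 4.54 (7, 3, 4 and 5 contacts), reached by 0.261%. Hoxd lay lower: its mean was 3.10 with Hoxc (reached by 1.82%), 1.75 with Hoxa (11.1%) and 1.33 with Hoxb (21.9%). In L1 AMO replicate 2 no contact of the Hoxa bin with the Hoxd bins was counted, against 11, 2 and 4 in the other samples.

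Part of these levels belongs to the bins' contact with the whole of the other chromosome. When the expected value was set from each bin's own mean contact with the other chromosome, an alternative chosen after seeing the data, Hoxb-Hoxc stood at 5.46, 5.58, 6.35 and 8.32 for the Hox bins alone. It remained the highest of the 6 pairs, with a mean of 6.43, followed by Hoxa-Hoxb at 3.67 and Hoxa-Hoxc at 3.58. For the windows with flanks, the same expected value left a mean of 2.01 for Hoxb-Hoxc and 1.08 for Hoxc-Hoxd, the lowest.

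Between SCR AMO and L1 AMO, the window pairs Hoxb-Hoxd and Hoxc-Hoxd were lower in both L1 AMO samples. Hoxb-Hoxd had an O/E of 1.87 and 2.23 in SCR AMO and of 1.45 and 1.13 in L1 AMO, a change of -0.67 on the log2 scale (exact permutation p = 0.333). Hoxc-Hoxd had 2.04 and 2.76 in SCR AMO and 1.39 and 1.16 in L1 AMO, a change of -0.90 (exact permutation p = 0.333). In these 2 of the 6 pairs the groups did not overlap, while 17.4% of all 426923 window pairs of the same chromosomes were lower in L1 AMO without overlap and 16.9% higher. The other 4 overlapped, and over all 6 pairs the mean log2 O/E was 1.17 and 1.35 in SCR AMO and 1.23 and 0.80 in L1 AMO. Without Hoxd, the mean of the other 3 pairs differed by 0.16 in the opposite direction, again with overlapping groups.

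In a test of raw counts across 1007737 pairs of 1.5-Mb tiles on different chromosomes, none of the 6 Hox pairs was called by edgeR's quasi-likelihood test at a Benjamini-Hochberg adjusted p of 0.05. Over all tile pairs, 0.165% were called higher in L1 AMO and 0.0155% lower. Hoxc-Hoxd had 63, 17, 14 and 8 contacts in the 4 samples, in the order SCR AMO 1 and 2 and L1 AMO 1 and 2, with a log2 change of -0.91 (edgeR's quasi-likelihood test, Benjamini-Hochberg adjusted p = 0.393). Hoxb-Hoxd had 71, 17, 17 and 9 contacts and a change of -0.80 (edgeR's quasi-likelihood test, Benjamini-Hochberg adjusted p = 0.443). These were the 2 Hox pairs with an unadjusted p under 0.05 in edgeR, and DESeq2 called none and gave none such an unadjusted p. The other 4 pairs changed by -0.33 to 0.08, with adjusted edgeR p values of 0.842 and above. Over all tile pairs the median log2 change was 0.02. Over those with a Hox window it was -0.29 for Hoxa, -0.37 for Hoxb, -0.23 for Hoxc and -0.09 for Hoxd. The precision of these changes is limited by the 8 to 157 contacts per pair and sample. In simulated counts the same test called 0 of 100 tile pairs, drawn from all those tested, that were changed by 1 on the log2 scale. Most tested pairs have fewer contacts than the Hox pairs, which are all among the 52071 with a mean count of at least 20. The simulated share thus does not give how often such a change would be called for the Hox pairs. With counts this low, the lack of calls does not show that the Hox pairs are unchanged.

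For the Hoxb and Hoxc bins alone the O/E was higher in both L1 AMO samples, by 0.46 on the log2 scale (exact permutation p = 0.333). The value differed between the matrices of the L1 AMO samples, at -0.19 with the first of each alone and 0.87 with the second alone, and it was 0.01 with all samples thinned to the lowest depth. Hoxb-Hoxd, for the Hox bins alone, was apart in the other direction. It had 2.38 and 1.67 in SCR AMO and 0.51 and 0.77 in L1 AMO (log2 change -1.66), on 14, 2, 1 and 1 contacts. The remaining pairs of Hox bins overlapped. How many of all pairs of single bins were apart was not computed.

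**Figure D2:**
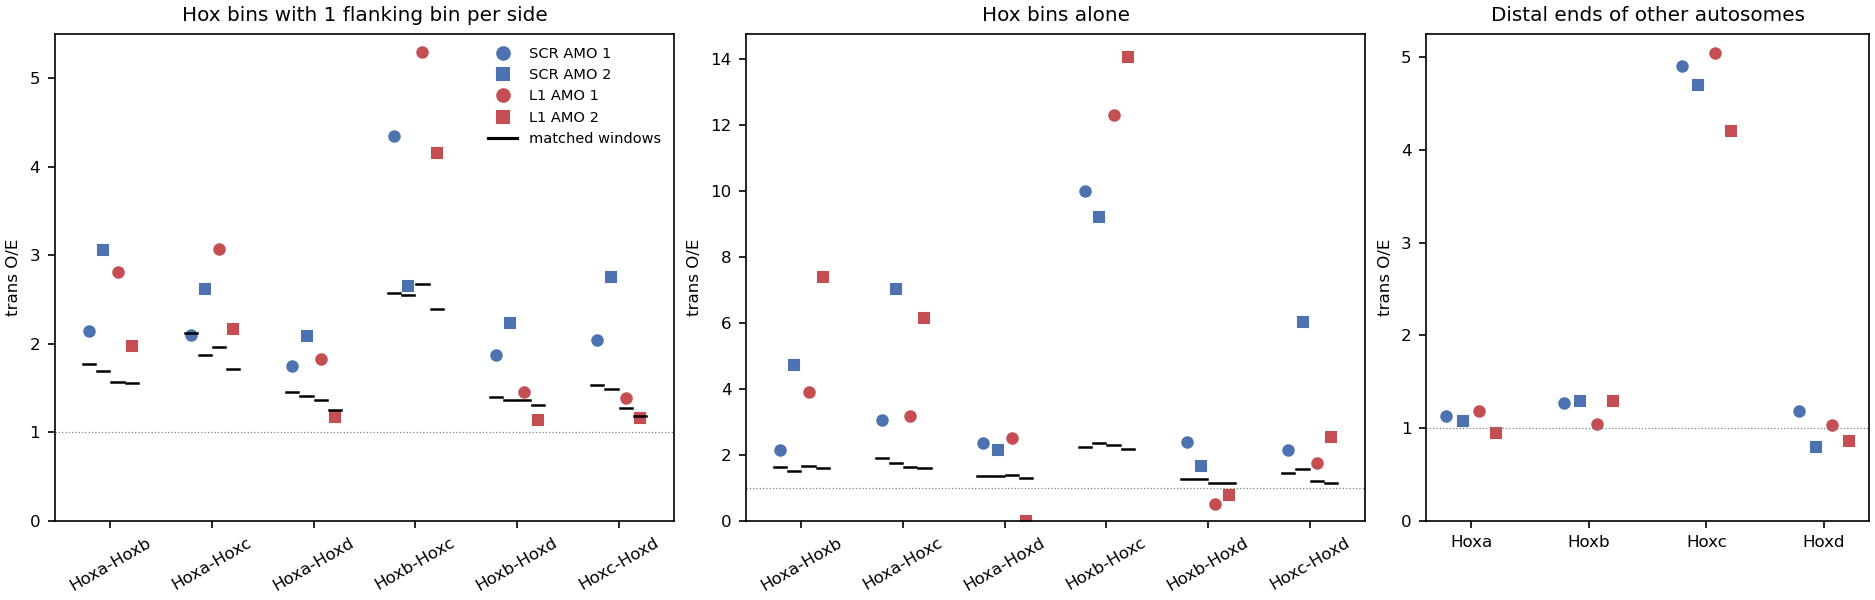
Trans O/E of the 6 pairs of Hox windows (left) and Hox bins alone (middle) in each sample, with a short black line at the matched level of that sample, and trans O/E of each Hox window with the distal ends of other autosomes (right). Hoxb-Hoxc lies highest in every sample for the Hox bins alone and in 3 of 4 samples for the windows (SCR AMO replicate 2 has it at 2.65, below Hoxa-Hoxb and Hoxc-Hoxd), L1 AMO points lie below SCR AMO points for Hoxb-Hoxd and Hoxc-Hoxd windows, and among the clusters Hoxc is the one with distal ends at 4.20 to 5.04.

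Hoxc differs from the other clusters in its place near the end of its chromosome, with 1 bin between it and the chromosome's end. The Hoxc window met the last windows of the 18 other autosomes at an O/E of 4.91 and 4.70 in SCR AMO and 5.04 and 4.20 in L1 AMO. The same distal ends, without that of chromosome 15, were met at 0.943 to 1.18 by Hoxa, at 1.04 to 1.29 by Hoxb and at 0.790 to 1.18 by Hoxd. No Hoxc value overlaps with those of the other clusters, while SCR AMO and L1 AMO overlap for each cluster. The Hoxc bin spent 39.1% and 38.5% of its contacts on other chromosomes in SCR AMO and 27.7% and 24.3% in L1 AMO, the highest shares of the 5 Hox bins in each sample.

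The strongest partners of the 4 windows on other chromosomes, outside the Hox windows, were of different kinds. For Hoxc they were the last tiles of chromosome 2 (mean O/E 12.6), chromosome 11 (10.7) and chromosome 4 (9.78). For Hoxb they were chr10:79500001-81000000 (6.81), chr4:132000001-133500000 (4.62) and chr4:138000001-139500000 (4.45). For Hoxa, which had the weakest leading partner, they were chr4:132000001-133500000 (2.66), chr4:133500001-135000000 (2.63) and chr4:145500001-147000000 (2.55). For each Hoxc partner the highest bin pair held the flanking last bin of chromosome 15, with 20.9% to 31.7% of the contacts. A flanking bin also held it for chr4:132000001-133500000 with Hoxa and with Hoxb, and for chr4:133500001-135000000 with Hoxa. For the other partners of Hoxa and Hoxb it held the Hox bin.

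The tile chr4:132000001-133500000 thus stood among the first 3 partners of both Hoxa and Hoxb. Hoxd had 1 partner that stood apart, chr4:105000001-106500000, with O/E values of 5.36, 4.41, 6.33 and 9.66 and 324 contacts over the 4 samples. Of these contacts 162 (50%) fell in a single bin pair, that of the flanking bin chr2:73500001-74000000 with chr4:105500001-106000000, so they do not lie in the Hoxd bins. Its next partners were chr14:78000001-79500000 (2.59) and chr4:103500001-105000000 (2.13). Their highest bin pairs also held a flanking bin, with 36.3% and 33.9% of the contacts. As partners of each other, Hoxb was 5th, Hoxc 6th and Hoxd 173rd of the 1266 tiles tested with Hoxa. Among the 1396 tested with Hoxb, Hoxc was 10th, Hoxa 88th and Hoxd 233rd. Among the 1498 tested with Hoxc, Hoxb was 27th, Hoxa 229th and Hoxd 423rd, and among the 1410 tested with Hoxd, Hoxc was 12th, Hoxa 27th and Hoxb 33rd.

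Over the tiles of all other chromosomes, the trans profile of Hoxc was like that of Hoxb, with a Pearson r of log2 O/E of 0.83 over 1449 tiles. This is a description, since the tiles share libraries and depth. Hoxb ranked 19th of 1529 tiles in likeness to Hoxc, whose 3 most like tiles were chr11:119500001-121000000 (0.86), chr8:126000001-127500000 (0.85) and chr8:108000001-109500000 (0.84). The other pairs of clusters had r of 0.67 to 0.76, and the median over all tiles was 0.17 to 0.23. Hoxb was most like chr8:124500001-126000000 (0.87), chr7:133500001-135000000 (0.87) and chr8:123000001-124500000 (0.87), and Hoxa was most like chr17:30000001-31500000 (0.82), chr9:63000001-64500000 (0.81) and chr13:54000001-55500000 (0.81). Hoxd had no tile above 0.74, the first being chr4:150000001-151500000, chr8:126000001-127500000 and chr11:83500001-85000000.

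Within chromosomes, the border between both Hoxd bins was among the weakest junctions of the 4 clusters. Their O/E, here over the mean of all neighbouring bins of the chromosome, was 0.707 and 0.714 in SCR AMO and 0.661 and 0.639 in L1 AMO. The mean over the 4 samples, 0.680, was reached or exceeded by 94.1% of the 353 neighbouring pairs of chromosome 2. The groups did not overlap and differed by -0.060 (exact permutation p = 0.333). With all samples thinned to the lowest depth, in 1 draw, the difference was -0.018 and the groups overlapped. With raw counts of 3119, 577, 1407 and 1046 the pair was called lower by edgeR (log2 change -0.29, Benjamini-Hochberg adjusted p = 0.00182), and with an offset for the mean change at each distance it was no longer called (-0.14, edgeR adjusted p = 0.169).

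The junction of Hoxc with its centromeric neighbour stood at 0.548 and 0.543 in SCR AMO, below the Hoxd pair, and at 0.707 and 0.740 in L1 AMO, above it. All 8 contacts of the Hox bins with their outer neighbours were higher in both L1 AMO samples after balancing, against 38.1% of all 5049 neighbouring pairs higher and 36.9% lower without overlap. Hoxb with its telomeric neighbour went from 1.29 and 1.26 to 1.38 and 1.42, and Hoxa with its telomeric neighbour from 1.22 and 1.23 to 1.37 and 1.37. After balancing, the pair of Hoxd bins was the only junction of a Hox bin that was lower. Among the 1008 neighbouring pairs of the genome with an O/E below 0.8 in SCR AMO, where the Hoxd pair and the centromeric side of Hoxc belong, 62.7% were higher in L1 AMO without overlap and 10.1% lower. These pairs were chosen by low SCR AMO values, which by itself favours higher values in L1 AMO. Such shares are therefore no reference for the Hoxd pair or for Hoxc.

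The count of outer contacts that were higher depends on balancing, which raises the contacts of bins that lost coverage. Without balancing, 3 of the 8 outer contacts were higher without overlap (Hoxc and Hoxd-centromeric with their centromeric and Hoxd with its telomeric neighbour), both of Hoxa were lower, and 3 overlapped. The Hoxd pair was lower without overlap also then, at 0.80 and 0.773 in SCR AMO and 0.740 and 0.698 in L1 AMO. In edgeR's test of raw counts, the Hoxa contact with its centromeric neighbour was the single outer junction called. Its log2 change was -0.26 (edgeR adjusted p = 0.00345), a direction opposite to its balanced O/E. With the distance offset it was still called (-0.19, edgeR adjusted p = 0.0179), unlike the Hoxd pair. All 8 outer junctions had a negative log2 change without the offset, and only those of Hoxa did with it.

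**Figure D3:**
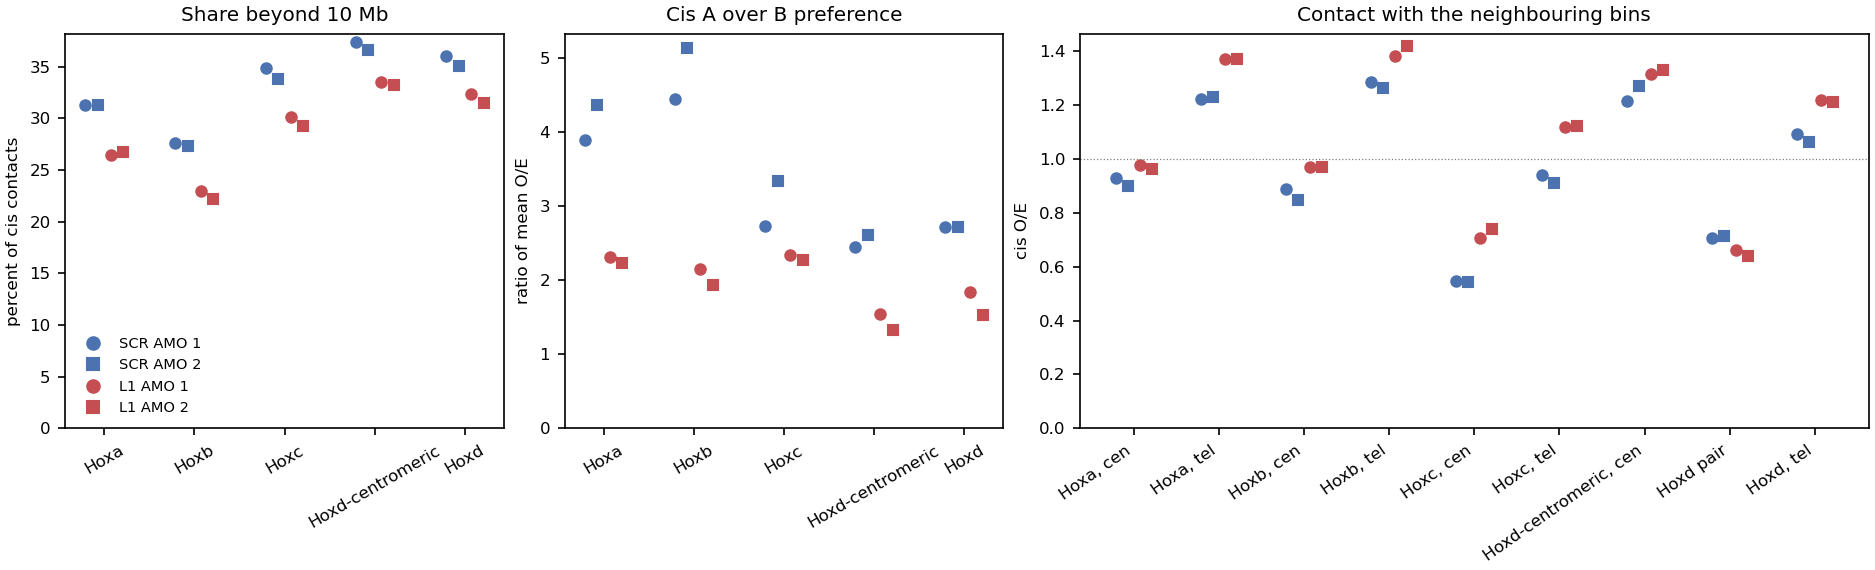
Values of each Hox bin in the 4 samples: the share of its cis contacts beyond 10 Mb (left), the ratio of its mean cis O/E with A bins to that with B bins (middle), and the cis O/E with the bin on its centromeric (cen) or telomeric (tel) side (right). L1 AMO points lie below SCR AMO points for every bin in the left and middle panels, and in the right panel the pair of Hoxd bins is the one junction where they lie below.

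By distance, the Hox bins had a smaller share of far contacts in L1 AMO. Beyond 10 Mb, Hoxa made 31.3% of its cis contacts in both SCR AMO samples and 26.4% and 26.8% in L1 AMO, a difference of -4.66 percentage points (exact permutation p = 0.333). Hoxb went from 27.6% and 27.3% to 23.0% and 22.2%, and Hoxc from 34.8% and 33.8% to 30.1% and 29.2%. Both Hoxd bins, at 35.1% to 37.4% in SCR AMO, had 31.5% to 33.6% in L1 AMO. All 5 bins were lower without overlap, as were 76.6% of all 5093 bins (6.07% were higher), so the direction is that of most of the genome. Their mean difference was -4.29 points, against a median of -2.33 over all bins.

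The contacts between 2 and 10 Mb took a larger share in L1 AMO for all 5 bins, as they did without overlap for 99.4% of all bins. In Hoxa they went from 11.4% and 11.1% to 14.9% and 15.7%. Hoxc changed least, from 13% and 13.3% to 13.7% and 13.6%, a difference of 0.467 points where the median bin of chromosome 15 gained 3.35. Its larger difference lay closer, within 2 Mb, where its share went from 52.1% and 52.8% to 56.2% and 57.2%. Among all bins, 27.3% gained in that range without overlap and 52.5% lost, and of the Hox bins Hoxb also gained, by 2.12 points.

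The profile by distance showed where the bins departed from the mean of their chromosome. Balanced contacts of Hoxb at 2.5 to 4 Mb were 0.95 higher on the log2 scale in L1 AMO, against 0.52 for the mean of chromosome 11 at that distance. For Hoxc at 1 to 2 Mb the change was 0.72 against 0.18. For Hoxa at 4.5 to 10 Mb it was 0.71 against 0.41, and beyond 80 Mb -0.81 against -0.47. The Hoxd bin was closer to its chromosome at 4.5 to 10 Mb, at 0.46 against 0.38.

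**Figure D4:**
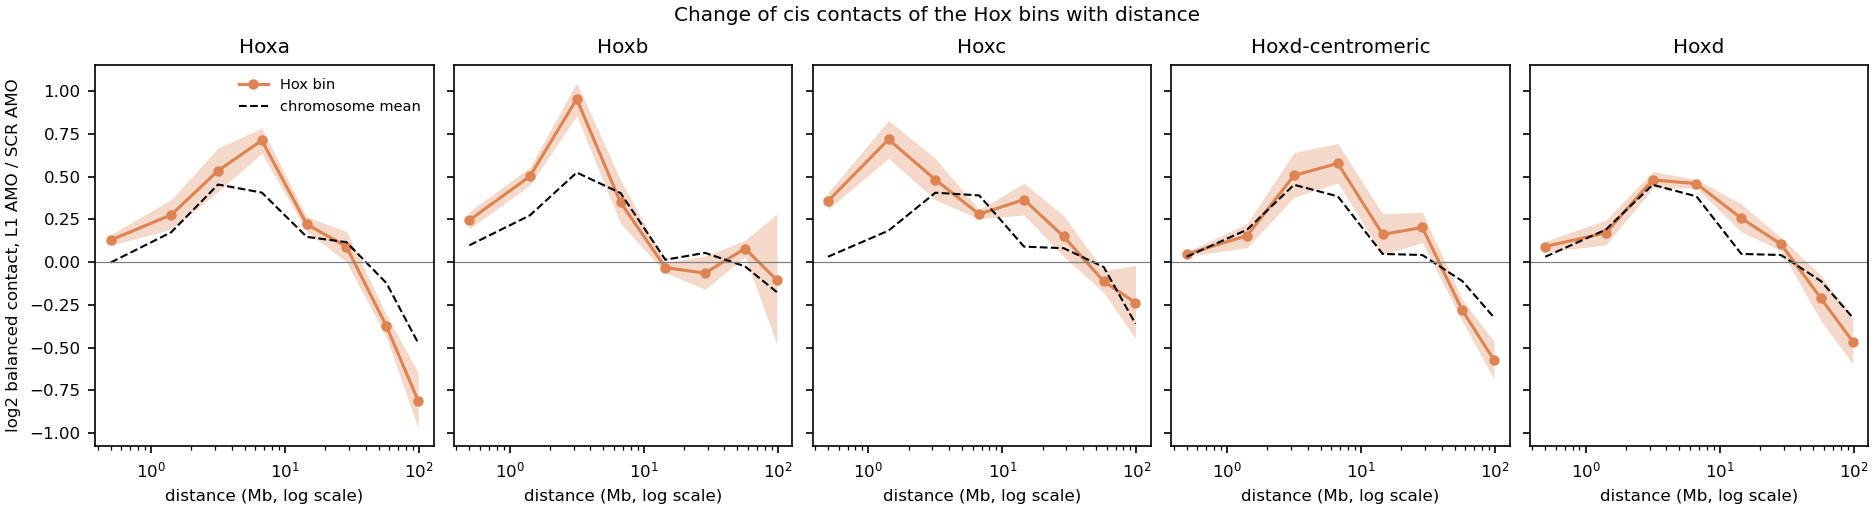
Log2 ratio of balanced cis contact frequency in L1 AMO over SCR AMO by distance (log scale, Mb) for each Hox bin (orange line, mean of each group; shading, range of the 4 ratios of single samples) and for all bins of its chromosome (dashed line). The peak lies at 1 to 2 Mb for Hoxc, at 2.5 to 4 Mb for Hoxb and at 4.5 to 10 Mb for Hoxa, and every bin has its lowest value beyond 80 Mb.

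All 5 Hox bins lie on the A side of their chromosome, above 68.7% (Hoxd-centromeric) to 96.2% (Hoxa) of its bins in eigenvector 1 of the cis contacts. Their preference for A over B was measured as the mean O/E beyond 2 Mb with the 20% of bins highest in that eigenvector over the mean with the 20% lowest. The eigenvector came from the 4 samples together, so it is not independent of the maps. Hoxb had the strongest preference in SCR AMO, 4.44 and 5.14, and 2.15 and 1.93 in L1 AMO. Hoxa went from 3.89 and 4.36 to 2.32 and 2.23, and Hoxc from 2.74 and 3.34 to 2.33 and 2.27.

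The Hoxd bin went from 2.72 and 2.71 to 1.84 and 1.52, and the Hoxd-centromeric bin from 2.45 and 2.61 to 1.54 and 1.33. All 5 were lower in L1 AMO without overlap, as were 88.1% of the 2394 A-side bins of the autosomes. Their mean difference was -1.49, and the median A-side bin differed by -0.547 from medians of 2.33 in both SCR AMO samples. Both terms of the ratio moved in 4 of the 5 bins. Hoxb's mean O/E with B bins went from 0.312 and 0.268 to 0.552 and 0.555, while with A bins it went from 1.38 and 1.38 to 1.19 and 1.07. For Hoxc the mean O/E with A bins overlapped between groups, at 1.33 and 1.43 in SCR AMO and 1.45 and 1.32 in L1 AMO, and its O/E with B bins went from 0.488 and 0.428 to 0.620 and 0.583.

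Between chromosomes the preference was a ratio of mean balanced frequencies. Its A and B bins were the highest and lowest 20% of each chromosome in the genome-wide eigenvector 1 of contacts between chromosomes. It was lower without overlap in both Hoxd bins and overlapped in the other Hox bins. The Hoxd-centromeric bin went from 2.26 and 2.55 to 1.76 and 1.58 and the Hoxd bin from 2.74 and 2.08 to 1.89 and 1.72. Over the A-side bins of all autosomes, 51.6% were lower without overlap and 1.42% higher, so a lower value without overlap is common among such bins. Hoxc had 4.34 and 3.57 in SCR AMO and 4.14 and 3.78 in L1 AMO, and Hoxa and Hoxb overlapped as well. Relative to its mean contact with all other autosomes, the Hoxd bin met their A bins at 1.59 and 1.53 in SCR AMO and 1.34 and 1.28 in L1 AMO, whereas Hoxb met them at 2.11 and 2.00 and at 2.13 and 1.97.

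The strongest cis partners beyond 2 Mb were ranked by mean O/E over the 4 samples and are given as a description. Hoxa met chr6:83500001-84000000, at a distance of 31.5 Mb, at 2.50 and 3.06 in SCR AMO and 3.35 and 3.23 in L1 AMO, followed by chr6:83000001-83500000 (mean 2.15) and chr6:126500001-127000000 (2.10). Hoxb met chr11:118500001-119000000 at 3.26 and 3.38, then 2.82 and 3.05, and next chr11:4500001-5000000 (3.10) and chr11:5500001-6000000 (2.65), the last 2 over 90 Mb away. The last 2 rest on 31, 7, 13 and 8 and on 28, 3, 7 and 8 contacts. In L1 AMO chr11:5500001-6000000 had 1.58 and 3.82. The partners of Hoxc lay together at chr15:35000001-35500000 (2.94), chr15:36500001-37000000 (2.92) and chr15:36000001-36500000 (2.37), on 7 to 41 contacts per sample.

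Both Hoxd bins shared chr2:116000001-116500000, at 2.44 for the centromeric bin and 3.05 for the Hoxd bin. This partner lies on the B side of the chromosome by the eigenvector, with 28.5% of bins below it. The other leading partners were chr2:164000001-164500000 (2.47) and chr2:156000001-156500000 (2.36) for the Hoxd-centromeric bin and chr2:151500001-152000000 (2.95) and chr2:154000001-154500000 (2.76) for the Hoxd bin. Those of the Hoxd-centromeric bin rest on 29, 4, 11 and 6 and on 22, 7, 10 and 5 contacts. Those of the Hoxd bin rest on 37, 9, 14 and 13 and on 42, 9, 16 and 8.

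Among raw counts of cis bin pairs, edgeR's quasi-likelihood test called 40 pairs of a Hox bin higher and 85 lower in L1 AMO at a Benjamini-Hochberg adjusted p of 0.05, of 921 tested. That is 4.34% and 9.23%, against 7.07% and 4.56% of all 408767 pairs tested. Up to 2 Mb, 4 of 36 Hox pairs were higher and 3 lower, where 20.1% and 7.72% of all pairs were called. At 2 to 10 Mb 23 of 144 were higher and 4 lower (23.8% and 1.11% of all pairs), and at 10 to 40 Mb 13 of 440 were higher and 36 lower (2.96% and 4.22%). Beyond 40 Mb none of 301 was higher and 42 were lower (0.489% and 7.3%). The Hox bins thus had their lower calls at long range, where lower calls prevail among all pairs too. When the mean change at each distance was taken out by an offset, 19 Hox pairs were higher and 23 lower, against 1.32% and 1.28% of all pairs. Before the offset, Hoxa held 12 higher and 27 lower pairs of 193 tested, and Hoxb 10 and 19 of 141. Hoxc held 3 and 7 of 113, the Hoxd-centromeric bin 7 and 15 of 242, and the Hoxd bin 8 and 18 of 233. The lower pair of both Hoxd bins is counted in each. With the offset, Hoxa held 6 higher and 11 lower, Hoxb 6 and 5, and Hoxc 2 and 4. The Hoxd-centromeric bin then held 1 and 0, and the Hoxd bin 4 and 3. Without the offset, leaving out any 1 sample gave fewer calls in both directions, among the Hox pairs and among all pairs. They were fewest without SCR AMO replicate 1, the deepest library. DESeq2 called 2 and 3 of the Hox pairs, against 4804 and 615 of all 408767 pairs.

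The partner's compartment divided the calls. Of the 40 higher pairs 35 joined a Hox bin to the B side of its chromosome, and of the 85 lower pairs 83 to the A side. Over all pairs with an A-side bin, 10.0% of those with the B side were called higher and 11.3% of those within the A side lower, against 9.97% and 14.6% for the Hox bins. The median log2 change of the Hox pairs was -0.48 with the A side and 0.31 with the B side.

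The pairs with the smallest adjusted p in each direction show this division for each bin but Hoxc, whose pair among those higher lies within the A side, and the Hoxd bins are given after Hoxa and Hoxb. Hoxa with chr6:69500001-70000000, 17.5 Mb away and among the lowest 1.37% of bins in the eigenvector, had 12, 1, 17 and 28 contacts and a log2 change of 2.09 (edgeR, adjusted p = 0.000113). Hoxa with the A-side bin chr6:86500001-87000000 had 104, 22, 25 and 16 contacts and a change of -1.31 (edgeR, adjusted p = 3.97e-05). Hoxb was higher with chr11:93500001-94000000 (96, 13, 102 and 84 contacts, change 1.09, edgeR adjusted p = 1.01e-06) and lower with chr11:102500001-103000000 (176, 32, 60 and 26 contacts, change -0.96, edgeR adjusted p = 6.5e-05).

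On the telomeric side of Hoxd, the pair with the smallest adjusted p among those higher was chr2:78000001-78500000 for the Hoxd bin (92, 11, 99 and 69 contacts, change 1.02, edgeR adjusted p = 1.29e-05) and chr2:78500001-79000000 for the Hoxd-centromeric bin (change 0.79, edgeR adjusted p = 0.0063). With the distance offset the latter was not called (change 0.51, edgeR adjusted p = 0.201), nor was the pair of Hoxd bins, while the other 8 named pairs were. Both partners lie on the B side, with 8.73% and 12.4% of bins below them. Among lower pairs, the Hoxd bin had chr2:73500001-74000000, 1 Mb away (change -0.32, edgeR adjusted p = 0.00104), and the Hoxd-centromeric bin had the Hoxd bin itself, given above. Hoxc was higher with chr15:101000001-101500000 (change 0.44, edgeR adjusted p = 0.00108) and lower with chr15:73000001-73500000, 29.5 Mb away (change -1.04, edgeR adjusted p = 0.000704).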

How the data were processed

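The deposited matrices hold raw counts of Hi-C contacts per pair of 500-kb mm9 bins, which the authors made with HiC-Pro (2.7.1b in the submitters' processing notes, which also name CASAVA; the study's methods name another version). Whether duplicates were removed is not given in the sources used here. The 2 matrices of each L1 AMO sample were summed. Bins under 0.1 of their chromosome's median coverage were left out, and each map was balanced by iterative correction to a tolerance of 1e-05. Cis O/E divides by the mean at the same distance on the chromosome, trans O/E by the mean of the chromosome pair. Matched windows lay at least 5 Mb from the Hox window.

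Raw counts were tested with edgeR 4.0.16 (quasi-likelihood, TMM, Benjamini-Hochberg over all pairs) in R 4.3.3, for cis bin pairs with a mean count of at least 10 and trans pairs of 1.5-Mb tiles with at least 5. DESeq2 1.42.0 was an alternative. For single values an exact permutation test (two-sided) over the 4 samples was used. Python 3.11.15, numpy 2.4.6, scipy 1.17.1, pandas 2.3.3 and matplotlib 3.10.9 were used, and the fits and the balancing were tested on simulated data. Of 100 simulated pairs changed by 1 on the log2 scale, edgeR called 39 in cis and 0 in trans. At a change of 2 it called 75 and 27. The simulated spread between samples (dispersion) was near that of the cis counts, 0.0015, while that of the trans counts was larger, 0.0062.

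The Hox bins, gene lists and tests were chosen with earlier results of these data known. Partner bins are named by highest mean O/E (3 per bin or window) and by smallest adjusted p in each direction (1 per bin). Same-numbered samples of both groups did not deviate together (correlation of deviations 0.0101 in cis, 0.00728 in trans), so the numbers were not taken as pairs. Other normalizations, filters, distance limits, compartment classes, single matrices, thinning and leaving out each sample were tried. RefSeq sequences and gene names are of GRCm38.p6, and no coordinate was converted.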

Additional observations from a re-analysis of the deposited data

How the results depend on the processing

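The counts of called Hox cis pairs depend most on the processing. The count filter moved the balance of directions, among all pairs too. With the main filter, 28910 were higher and 18658 lower of all 408767 pairs. With a mean count of at least 20, 28 were higher and 84 lower of 486 tested, against 24325 and 21722 of all 240089 pairs. With no filter beyond 1 count, 56 were higher and 70 lower of 1436, against 33449 and 11956 of all 684000. Of 40 higher and 85 lower, DESeq2 called 2 and 3 (its adjusted p was not available for 757 of the 921 pairs), an offset for the mean change at each distance left 19 and 23, and leaving out 1 sample at a time gave 7 to 36 higher and 9 to 72 lower, lowest without SCR AMO replicate 1. Without balancing, the mean difference of the 5 bins was -3.56 points for the share beyond 10 Mb (main value -4.29), -2.10 for cis A over B (-1.49) and -0.896 for trans A over B (-0.441). The share differed by -3.26 points with a limit of 5 Mb and by -3.09 with contacts within the bin included, and cis A over B by -0.684 with classes of the upper and lower 50% of bins. The mean log2 trans contact of the 6 pairs, at -0.25, was 0.068 for the Hox bins alone (there the log2 of the mean, since 1 value was 0) and 0.16 without Hoxd, the latter chosen after seeing the data. Hoxb-Hoxc bins alone, at 0.46, turned to -0.19 with the first L1 AMO matrix alone and was 0.87 with the second. The Hoxd pair, at -0.060, differed by -0.018 with overlapping groups after thinning to the lowest depth. The causes were not tested.

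Leaving out 1 sample at a time gave -0.46 to -0.03 for the trans contact, -0.28 to 0.04 against matched pairs (above 0 without SCR AMO replicate 2 or L1 AMO replicate 2), -4.59 to -3.99 points for the share, -1.69 to -1.30 for cis A over B, -0.726 to -0.156 for trans A over B and -0.0709 to -0.0492 for the Hoxd pair. No Hox trans pair was called under any of these alternatives. The replicate number as a block gave 34 higher and 71 lower cis calls, against 25837 and 15068 over all pairs. It left the other values, as differences of means, as they were. Since the numbers share no batch in the labels, this says nothing of pairing.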
